A study of Schmidtea mediterranea with 11 samples.

Results

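The prog-2 family was followed through 4 transcripts of the planarian Schmidtea mediterranea, picked by their assembly identifiers out of the 26562 transcripts of the deposited expression table. They were prog-2-1 (comp69_c0_seq1), prog-2-2 (comp363_c0_seq1), prog-2-3 (comp61_c0_seq1) and prog-2-5 (comp213_c0_seq1), and 4 of 4 were above the expression filter that left 15492 transcripts for testing. PolyA RNA had been sequenced from whole adult worms of the asexual Berlin-1 strain, which descends from 1 animal. Control worms were injected with dsRNA for gfp, bruli(RNAi) worms with dsRNA for Smed-bruno-like, and mbnl(RNAi) worms with dsRNA for 4 muscleblind genes together (Smed-mbnl-1 and Smed-mbnl-like-1 to Smed-mbnl-like-3), in each case on 3 days in a row. Each of these groups had 1 library at each of days 20, 25 and 30 after RNAi, and the smed-h2b(RNAi) condition (here Smed-H2B) and the smedwi-2(RNAi) condition (here Smedwi-2) had 1 library each, without a stated day. The libraries of the 3 days served as replicates, and nothing in the sources says whether they came from separate cohorts. A p-value here therefore covers the spread of these libraries alone, which may be partly technical. In the group comparisons that spread also includes any change of a knockdown's effect from day to day.

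Planarian stem cells, the neoblasts, renew the epidermis throughout life. A subclass called zeta-neoblasts gives rise to postmitotic cells that migrate outward while they mature. The prog-1 and prog-2 genes are expressed in the earliest of these postmitotic cells and serve as their markers, so that they report on a stage between the dividing neoblast and the finished epidermal cell. bruli encodes an RNA-binding protein of the CELF family and the mbnl genes encode muscleblind-like proteins, both regulators of alternative splicing. Histone H2B knockdown affects the maintenance of neoblasts, and Smedwi-2, a Piwi protein, is needed for their progeny to differentiate. No sequence of a family member was in the files used here, so none is shown. Members of a gene family can share reads, and how the counting divided reads between the prog-2 transcripts was not analysed here.

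The targets of the bruli and mbnl knockdowns were examined, and those of the Smed-H2B and Smedwi-2 knockdowns were not, so the labels of these single libraries are unchecked. bruli mRNA stood at 3.33 to 6.33 TPM (transcript abundance as a share of the library, scaled by length) in the bruli(RNAi) libraries and at 82.9 to 84.9 TPM in controls. Of the 4 targets in mbnl(RNAi) worms 3 were lower than control, with log2 fold changes of -0.99 (mbnl-1), -1.56 (mbnl-like-2) and -1.96 (mbnl-like-1). The remaining target, mbnl-like-3, did not pass the test, at a mean of 2.40 TPM against 2.58 TPM in controls (adjusted p = 0.834 in limma). Each library sums to 1000000 TPM and TPM keeps no read counts, so the depth behind a value is unknown. None of the 4 prog-2 transcripts was at 0 in any library.

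All 4 prog-2 transcripts were abundant in control worms, at 2 levels. prog-2-1 was measured at 1985, 1695 and 1771 TPM in the control libraries of days 20, 25 and 30, at rank 54 to 65 from the top of all transcripts. prog-2-3 followed at 1615, 1374 and 1609.6 TPM. prog-2-2 stood at 542, 359 and 419.8 TPM and prog-2-5 at 529.8, 365 and 453 TPM in the same libraries. The upper pair did not overlap the lower pair in any library of the series, and prog-2-1 was above prog-2-3 in each. prog-2-2 and prog-2-5 could not be ordered, since their control means of 440.1 ± 93.0 TPM and 449 ± 82.7 TPM (SD, n = 3) differed by less than their spread. Together the 4 transcripts made up 0.379% to 0.467% of a control library. The coefficient of variation among controls was 8.28% for prog-2-1 and 8.98% for prog-2-3, and 21.1% for prog-2-2 and 18.4% for prog-2-5. In all 4 the control of day 25 was the lowest of the 3.

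**Figure D1:**
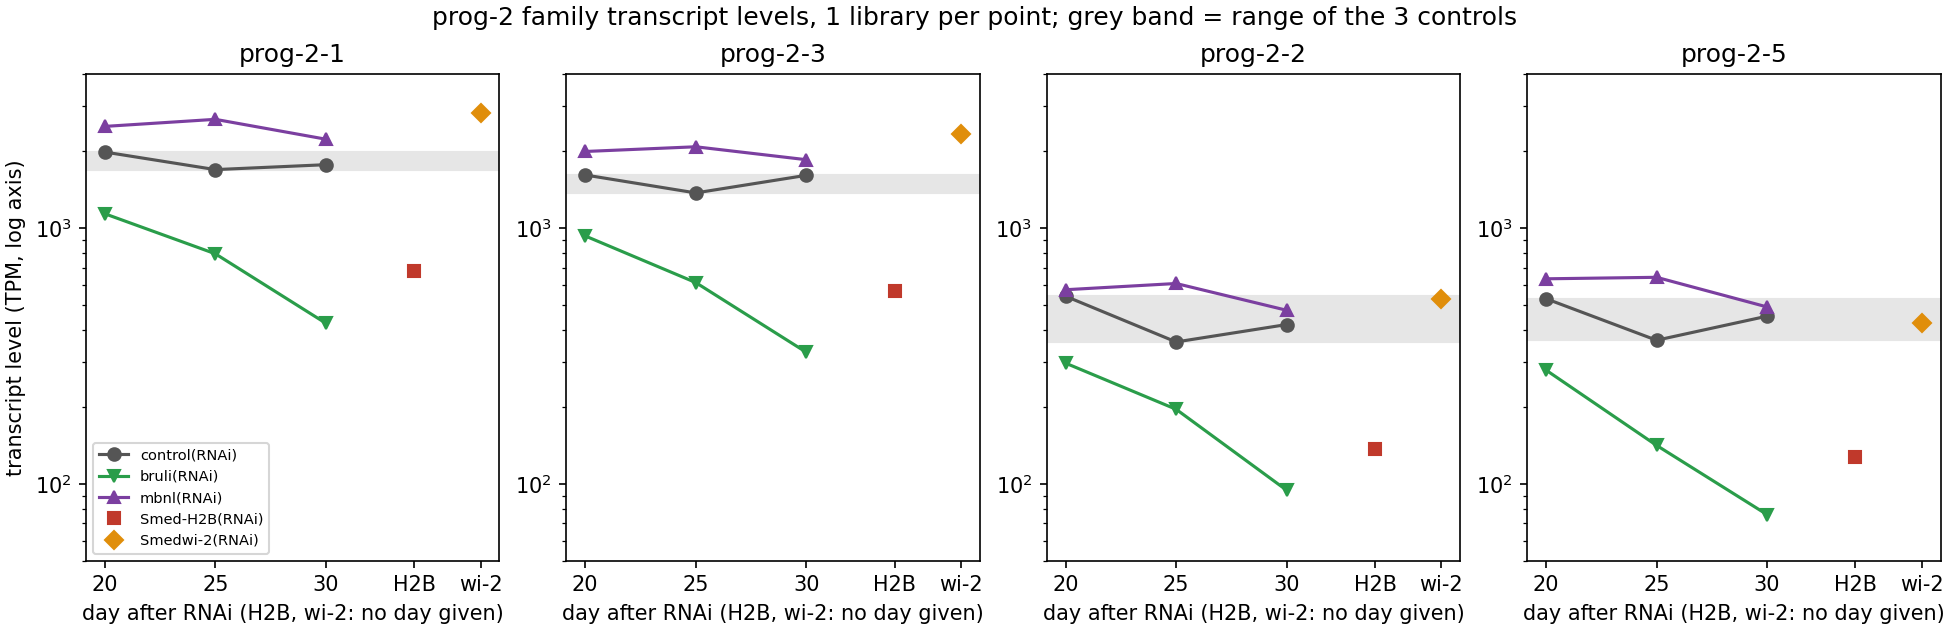
Level of each prog-2 transcript (TPM, log axis) against the day after RNAi, with 1 library per point and the grey band marking the range of the 3 controls. The bruli(RNAi) points lie under the band and sink from day 20 to day 30 in every panel, from 1139 to 425 TPM for prog-2-1, and the Smed-H2B(RNAi) library lies under the band as well; all mbnl(RNAi) libraries and Smedwi-2(RNAi) lie above it for prog-2-1 and prog-2-3, but not for prog-2-2 and prog-2-5.

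bruli knockdown lowered all 4 members of the family. prog-2-1 was measured at 1139, 794 and 425 TPM at days 20, 25 and 30, prog-2-3 at 932, 613 and 327 TPM. prog-2-2 stood at 297, 196 and 94.4 TPM and prog-2-5 at 279, 141 and 75.8 TPM. In each of the 4 the highest bruli(RNAi) library was under the lowest control, and at day 30 the family took 0.0922% of the library. The fold changes, taken as differences of log2(TPM+1), were similar among the members. They were -1.32 for prog-2-1 (standard error 0.22, adjusted p = 0.00474) and -1.29 for prog-2-2 (standard error 0.24, adjusted p = 0.00778) in limma across all tested transcripts, with the day as a block and Benjamini-Hochberg adjustment. In the same limma fit the values were -1.42 for prog-2-3 (adjusted p = 0.00583, standard error 0.25) and -1.62 for prog-2-5 (adjusted p = 0.00507, standard error 0.27), on a scale that understates the change of low transcripts. Their 95% confidence intervals overlapped, from -2.22 to -1.01 for prog-2-5 and from -1.84 to -0.75 for prog-2-2, and differences between members were not tested. Of all transcripts tested 11.3% were lower at an adjusted p under 0.05, 18.6% had bruli(RNAi) libraries all below the controls and 25.5% were below the control at each of the 3 days. The median log2 fold change was -1.37 over the family and 0.00 over all transcripts, and between 0.361% (prog-2-5) and 0.762% (prog-2-2) of all transcripts fell as far as a member. Whole-worm RNA cannot tell fewer early progeny cells from less prog-2 RNA per cell. The 4 calls were lost without all libraries of day 25, where the log2 fold changes were -1.74 to -1.43, adjusted p in limma was 0.0602 to 0.0695 and calls over all transcripts dropped from 1758 to 178, and among single libraries left out the fold changes were smallest without bruli(RNAi) of day 30, from -1.21 (prog-2-5) to -0.91 (prog-2-2).

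Other markers of neoblasts and of early progeny, here called lineage genes, were lower too after bruli knockdown, by unequal amounts. The neoblast markers smedwi-1 (a piwi gene) and pcna (a DNA replication factor) changed by -3.59 and -3.28 on the log2 scale (limma, adjusted p = 0.000152 and 3.37e-06). soxP-2, a SoxP factor of sigma-neoblasts, had one of -1.21 and p53, a marker of zeta-neoblasts, one of -1.02 (adjusted p = 0.000915 and 0.00646 in limma). prog-1 and prog-1-1, which mark early progeny like prog-2, changed by -2.21 and -2.25 (limma, adjusted p = 0.00220 and 0.00190). Thus 6 of these 6 lineage genes passed the test in the same direction. A list of RNA-binding proteins enriched in sorted neoblasts, taken from other libraries, moved with the family. The list includes smedwi-1. Of its 16 transcripts 14 were tested and 13 were lower, where 11.3% of all transcripts were, and their summed level was 312 to 398 TPM in the bruli(RNAi) libraries and 821 to 891 TPM in controls. RNA-binding proteins enriched in differentiated cells were at 1763 to 1780.1 TPM in sum after bruli knockdown and 1709 to 1879 TPM in controls, with 1 lower and 5 higher among 40 tested, where 11.3% of all transcripts were lower and 6.75% higher. The part of these marker levels in the prog-2 result was not tested.

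**Figure D2:**
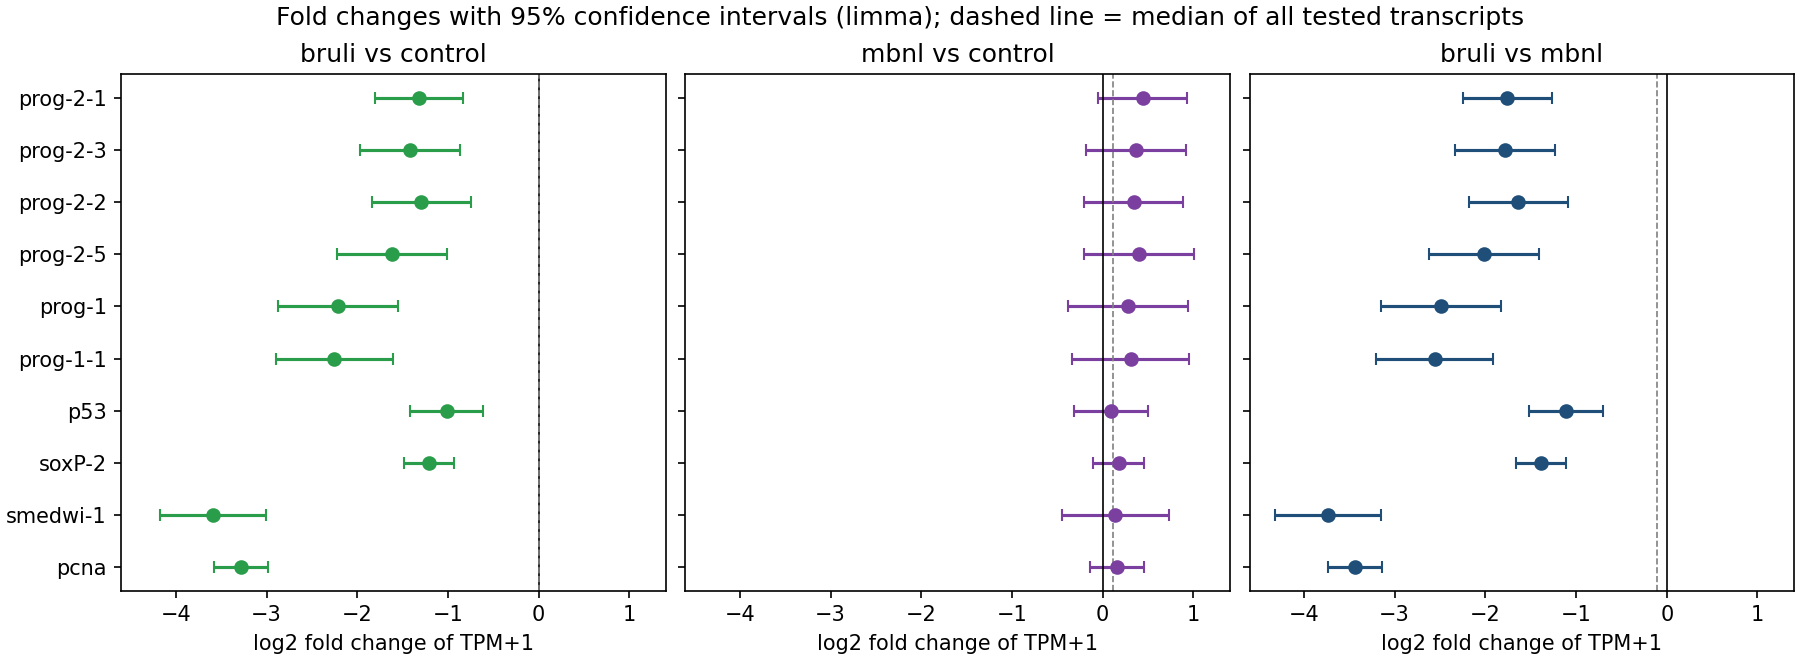
log2 fold change of TPM+1 (horizontal axis) with its 95% confidence interval from limma, in 3 comparisons of 3 libraries against 3. Shown are the prog-2 transcripts and 6 lineage genes, markers of neoblasts and early progeny. The prog-2 intervals lie wholly below 0 for bruli against control and bruli against mbnl, and span 0 for mbnl against control; the dashed line is the median of all 15492 tested transcripts.

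The measured depletion of the family was larger at day 30 than at day 20, but the slopes did not pass the test after adjustment. Relative to the control of the same day, prog-2-1 stood at 57.4%, 46.9% and 24.0% on days 20, 25 and 30 of bruli knockdown. prog-2-3 was at 57.7%, 44.6% and 20.3%, and prog-2-5 at 52.6%, 38.8% and 16.8%. prog-2-2 was at 54.7% and 54.5% at the first 2 days and at 22.5% at day 30. All 4 thus stood between 52.6% and 57.7% at day 20 and between 16.8% and 24.0% at day 30, and a fall in level at each step was seen in 24.6% of all transcripts. pcna, in contrast, was already at 9.98% of control at day 20 and at 10.4% at day 30, while smedwi-1 went from 13.9% to 4.07% and p53 from 70.8% to 33.4%. prog-1 went from 36.2% to 9.62%. A line fitted through the days of each group gave slopes of prog-2 that were lower in bruli(RNAi) than in control worms by -1.64 (prog-2-5) to -1.26 (prog-2-1) log2 units per 10 days, against a median of -0.14 over all transcripts. Single libraries weighed heavily on these slopes. That of prog-2-2 was -0.46 without the control of day 30, -0.83 without bruli(RNAi) of day 30 and -2.09 without the control of day 20, and that of prog-2-5 was -0.79 without the control of day 30 and -2.49 without the control of day 20. The slope differences did not pass limma's test after adjustment (adjusted p = 0.410 to 0.423), and neither did any of the 15492 transcripts. Unadjusted p-values in limma were 0.000315 (prog-2-3) to 0.00714 (prog-2-2), under 0.05 in 4 of 4 members, as for 7.49% of all transcripts in this direction. The deepening of the difference with each day was shared by 31.5% of all transcripts and by all 4 members.

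**Figure D3:**
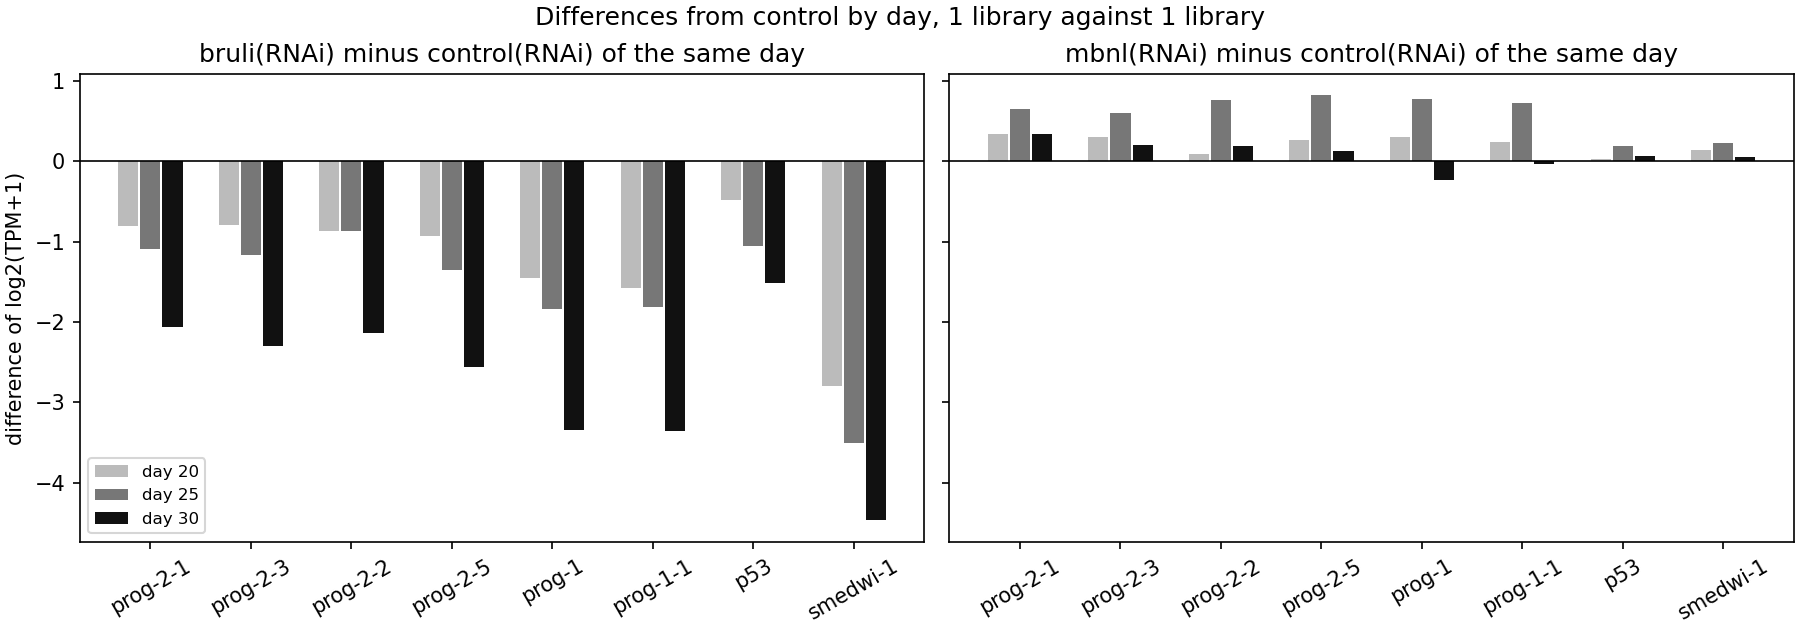
Difference of log2(TPM+1) from the control library of the same day (vertical axis), for days 20, 25 and 30 (light to dark), after bruli (left) and mbnl knockdown (right). After bruli knockdown the prog-2 bars lengthen from between -0.93 and -0.79 at day 20 to between -2.56 and -2.06 at day 30, and after mbnl knockdown they are above 0 at each day and longest at day 25.

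After mbnl knockdown the 4 transcripts had higher values than the control of the same day at 3 of 3 days, without passing the test. prog-2-1 was measured at 2501, 2665 and 2229 TPM at days 20, 25 and 30, and prog-2-3 at 1995, 2082 and 1853 TPM, above each control library. prog-2-2 stood at 575, 608 and 477 TPM and prog-2-5 at 634, 643 and 492 TPM, and both overlapped the controls. The log2 fold changes were 0.44 for prog-2-1, 0.40 for prog-2-5, 0.37 for prog-2-3 and 0.34 for prog-2-2 (standard errors 0.22 to 0.27, adjusted p = 0.249 to 0.419 in limma). Their 95% confidence intervals ran from -0.21 to 1.01 for prog-2-5 and from -0.05 to 0.93 for prog-2-1. In this fit the data thus allow no change as well as a higher level. The errors behind these intervals came from all 9 libraries of the time course. Coefficients of variation were 45.4% to 62.6% in bruli(RNAi), 5.84% to 14.3% in mbnl(RNAi) and 8.28% to 21.1% in control libraries. The fold changes were the same with only mbnl(RNAi) and control libraries in the fit. Adjusted p in limma was then 0.0631 (prog-2-1) to 0.190 (prog-2-2). Leaving out 1 library moved the fold changes. Without the control of day 30 they were 0.59 (prog-2-2) to 0.70 (prog-2-5), and without mbnl(RNAi) of day 20 0.56 (prog-2-3) to 0.64 (prog-2-5). Without the control of day 25 they were 0.13 (prog-2-2) to 0.33 (prog-2-1). The median over all transcripts was itself 0.11 in this comparison, and relative to it the members stood 0.23 to 0.33 higher. Of all transcripts 4.31% were higher at an adjusted p under 0.05 and 0 of the 4 members were. At an unadjusted p under 0.05 in limma the count was also 0 of 4, and 19.1% of all transcripts were higher. Being higher at all 3 days was common, at 36.6% of transcripts, and libraries all above the controls at 20.0%. The difference was largest at day 25 in all 4, from 0.60 (prog-2-3) to 0.82 (prog-2-5), as in 23.0% of transcripts, and at that day the control was at its lowest and mbnl(RNAi) at its highest. The slope in time differed from that of control by -0.14 to 0.10 log2 units per 10 days (adjusted p = 0.957 to 1.00 in limma, unadjusted p under 0.05 in 0 of 4, against 6.62% of all transcripts). Of the lineage genes, 0 of 6 passed the test after mbnl knockdown, with log2 fold changes from 0.09 (p53) to 0.31 (prog-1-1). At day 30, with 1 library per group and no test, prog-1 (85.0%), soxP-2 (96.1%) and prog-1-1 (97.4%) were below the control of that day.

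The comparisons of each knockdown with control share the 3 control libraries, so bruli and mbnl knockdown were also set against each other. Against mbnl knockdown, bruli knockdown left all 4 prog-2 transcripts lower and without overlap, where 20.0% of all transcripts were lower at the same threshold and 30.0% did not overlap. The log2 fold changes were -1.76 for prog-2-1, -1.79 for prog-2-3, -1.64 for prog-2-2 and -2.01 for prog-2-5 (standard errors 0.22 to 0.27, adjusted p = 0.000961 to 0.00195 in limma). Their median was -1.77, against -0.11 over all transcripts. These 4 calls held in each of 22 alternative analyses, in which the adjusted p of limma reached at most 0.0333. The 6 lineage genes were lower in this comparison as well, from -3.73 (smedwi-1) to -1.11 (p53).

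The Smed-H2B(RNAi) library had low levels of the whole family. prog-2-1 was measured at 683 TPM, prog-2-3 at 568 TPM, prog-2-2 at 137 TPM and prog-2-5 at 128 TPM, each under the lowest control. These levels correspond to 37.6%, 37.1%, 31.2% and 28.5% of the control mean, and lie between those of the bruli(RNAi) libraries of days 25 and 30. On the log2 scale the differences from the control mean were -1.79 (prog-2-5) to -1.41 (prog-2-1). A single library has no replicate check and no test was made. Of all transcripts 32.4% lay below the 3 controls in this library, so that being below them says little, and 6.31% were lower by more than 0.7 log2 units, as all 4 members were. The fraction of transcripts that were as low as a member, relative to control, was 0.226% (prog-2-5) to 0.684% (prog-2-1). smedwi-1, at 51.2 TPM, and pcna, at 16.7 TPM, were below each control, at 25.2% and 29.8% of their control means. Both were above all bruli(RNAi) libraries. prog-1 was at 87.1 TPM, 25.1% of the control mean. bruli mRNA was at 19.4 TPM in this library. The neoblast RNA-binding proteins summed to 394 TPM.

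In the Smedwi-2(RNAi) library the family split. prog-2-1 was at 2830.2 TPM and prog-2-3 at 2327 TPM, the highest values of either in the 11 libraries and 156% and 152% of the control mean. prog-2-2 was at 529.8 TPM and prog-2-5 at 425 TPM, within the range of the controls. Differences from the control mean were 0.64, 0.61, 0.29 and -0.06 log2 units for prog-2-1, prog-2-3, prog-2-2 and prog-2-5. Having 2 of 4 members above the controls is close to the background, since 36.0% of all transcripts were above them. On the deposited scale 0 of 4 exceeded 0.7 log2 units, as 5.07% of transcripts did, but prog-2-1 and prog-2-3 did so after quantile normalization of all libraries (0.77 and 0.80), and prog-2-1 without the control of day 20 (0.71). Without the control of day 20 prog-2-2 was above the remaining controls too, and the difference of prog-2-5 became 0.06. prog-1 and prog-1-1 were within the range of the controls, at 96.4% and 85.2% of the control mean. smedwi-1 and pcna were above the controls, at 128% and 164% of their means, and the neoblast RNA-binding proteins summed to 1149.6 TPM.

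The ratio of the prog-2 family to prog-1 differed between libraries. In controls the summed prog-2 level was 11.96, 14.2 and 11.2 times that of prog-1 at days 20, 25 and 30. After bruli knockdown it was 18.7, 23.5 and 25.2 times, with no overlap, and after mbnl knockdown 11.9, 13.2 and 15.6 times. The log2 ratio of prog-1 to prog-2 was -4.48 ± 0.22 after bruli knockdown and -3.63 ± 0.18 in controls (SD, n = 3), a difference of -0.85 with p = 0.1 in a two-sided exact permutation test, the smallest p that 3 libraries against 3 allow. After mbnl knockdown the difference was -0.12 (exact permutation p = 0.6). Adjusted over these 2 relations the exact permutation p-values were 0.2 and 0.6. The Smed-H2B(RNAi) and Smedwi-2(RNAi) libraries had ratios of 17.4 and 18.3, above every control and mbnl(RNAi) library. In the former prog-1 was lower than prog-2 relative to control, and in the latter prog-2-1 and prog-2-3 were higher while prog-1 was not.

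**Figure D4:**
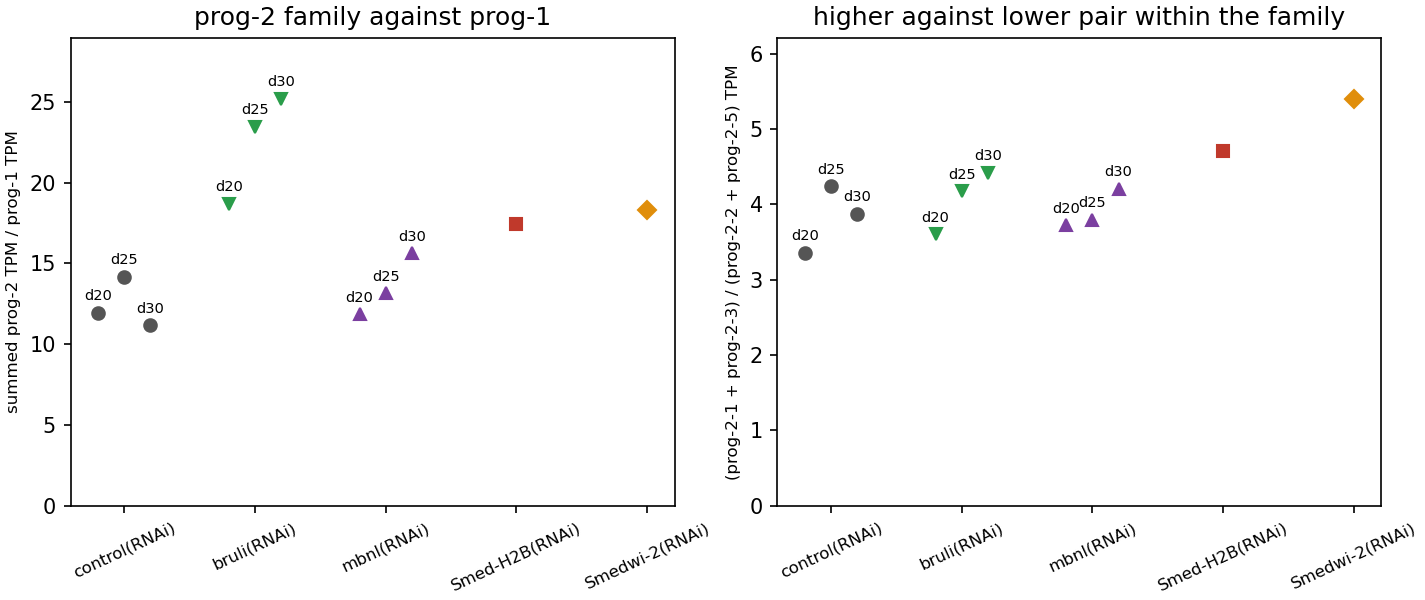
Ratio of the summed prog-2 TPM to prog-1 TPM (left) and of the more to the less abundant prog-2 pair (right) in each library, with the day beside each point. On the left the bruli(RNAi) libraries, at 18.7 to 25.2, lie above the controls, at 11.2 to 14.2; on the right Smed-H2B(RNAi), at 4.71, and Smedwi-2(RNAi), at 5.40, lie above the 9 libraries of the time course.

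Within the family the proportions moved little across the time course. prog-2-1 made up 41.6% to 46.1% of the family sum over the 9 libraries, prog-2-3 34.6% to 37.8%, prog-2-2 9.45% to 11.6% and prog-2-5 8.11% to 11.3%. The lowest shares of prog-2-5 in the time course were those of bruli(RNAi) at days 25 and 30. The more abundant pair, prog-2-1 with prog-2-3, outweighed the less abundant pair 3.36 to 4.42 times in the time course, 4.71 times in the Smed-H2B(RNAi) library and 5.40 times in the Smedwi-2(RNAi) library. This pairing was chosen after the values were seen. Across the 9 libraries of the time course, which share their days, the levels of the members rose and fell together, with Pearson correlations of 0.988 to 0.997 on the log2 scale. prog-2-3 was the transcript most like prog-2-1 among all tested, and the reverse held as well. For prog-2-2 the most similar transcript was prog-2-5, for which prog-2-2 ranked second. Members may share reads, and the part of shared reads in this likeness was not tested.

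Among the 15488 tested transcripts outside the family, prog-1-1 ranked 3rd and prog-1 8th in mean correlation with the 4 members over the same 9 libraries, at 0.990 and 0.987. p53 ranked 16th (0.983), smedwi-1 245th (0.943), soxP-2 737th (0.905) and pcna 1285th (0.860). The first 2 were comp401_c0_seq1 (0.994) and comp1259_c0_seq1 (0.990), which the files do not pair with gene names. The order describes shape and not size, and 804 transcripts had a mean correlation above 0.9. Of the lineage genes followed, both other early progeny markers ranked closest to the family.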

How the data were processed

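Per the study's methods, adapters and low-quality bases were clipped, ribosomal reads were filtered out, and the remaining reads were aligned with Bowtie2 to assembled transcripts and counted by HTSeq. The submitters' processing notes give Bowtie2 2.1.0, HTSeq 0.6.1p1 and CASAVA 1.8.2. The authors deposited TPM values, and how counts became TPM is not given in the sources used here. TPM keeps no read counts, so counting error could not be computed, and the 10 most abundant transcripts took 8.53% to 13.1% of a library.

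TPM was converted to log2(TPM+1). Transcripts averaging more than 1.5 on this scale in the 9 libraries with a day entered limma 3.58.1 in R 4.3.3, with a mean-variance trend. The model held group and day, because the study set knockdowns against day-matched controls, and left 4 residual degrees of freedom. Slopes in time were fitted per group, without the block, with 3 residual degrees of freedom. P-values are two-sided, and calls were made at a Benjamini-Hochberg adjusted p under 0.05. With group means removed, same-day libraries correlated at 0.148 on average (-0.01 to 0.26) and other pairs at -0.0733. Removing group means itself pushes the other pairs to the opposite sign, so the contrast between the 2 values does not test the day block. The procedure was tested on simulated data. Figures were drawn with matplotlib 3.10.9. The transcripts named in the text are the 4 members, 6 lineage genes, the knockdown targets and the 2 transcripts most similar to the members. Members, lists and tests were chosen with earlier results of these data known. The deposited table holds identifiers only, and the pairing of gene names with transcripts could not be checked against sequence here. Alternatives were pseudocounts of 0.5 and 5, other filters and scalings, no trend, no day block, only 2 groups, and leaving out libraries or days. No test used the 2 single libraries.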

Additional observations from a re-analysis of the deposited data

How the results depend on the processing

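The count of 4 lower prog-2 transcripts after bruli knockdown was unchanged in 21 of 22 alternatives and fell to 0 without the libraries of day 25, a range of 0 to 4 over the settings that leave out libraries. Leaving out 1 library at a time moved the log2 fold change of prog-2-1 between -1.60 and -0.97 and that of prog-2-5 between -2.00 and -1.21, with an adjusted p of at most 0.0358 in limma for any member. The count of lower transcripts over all those tested, 1758, was less stable, at 1084 with only the 2 groups in the fit, 703 and 808 without bruli(RNAi) of day 25 or 30, 924 and 879 without the control of day 25 or 30, and 178 and 404 without all libraries of day 25 or 30. With no day block all 4 were lower (adjusted p = 0.00849 to 0.0226 in limma), 0 of 4 passed after mbnl knockdown and 4 of 4 were lower in the direct comparison, so the block changed no call of a member. The 0 calls after mbnl knockdown and the 4 in the direct comparison were the same in each of 22 alternatives, as were the 0 slope calls in 16. For mbnl knockdown adjusted p in limma ranged from 0.0631 to 0.865 over these alternatives. It was lowest for prog-2-1 with only the 2 groups in the fit. Without bruli(RNAi) of day 30 it was 0.0748 (prog-2-1) to 0.202 (prog-2-5). With 1 library left out, the slope difference of bruli knockdown ranged from -2.49 (prog-2-5) to -0.46 (prog-2-2), and the log2 fold change of mbnl knockdown from 0.13 (prog-2-2) to 0.70 (prog-2-5). The 4 members below the controls in the Smed-H2B library were the same in 7 alternatives. The 2 above them in the Smedwi-2 library became 3 without the control of day 20, where the difference of prog-2-5 from the controls changed sign to 0.0648. Leaving out 1 control moved that difference from -0.20 to 0.06. The difference in the prog-1 to prog-2 ratio after bruli knockdown ranged from -0.97 to -0.76 over 7 alternatives. With 1 library per group and day and no read counts, changes at a single day have no error.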

Other observations

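The 2 transcripts outside the family whose course was most like that of prog-2 changed much less than it. comp401_c0_seq1 was measured at 312, 271 and 233 TPM at days 20, 25 and 30 of bruli knockdown, 385, 347 and 358 TPM in controls, and 393, 397 and 374 TPM after mbnl knockdown. Its log2 fold change after bruli knockdown was -0.43 (adjusted p = 0.00921 in limma), and it was at 285 TPM in the Smed-H2B library and 408 TPM in the Smedwi-2 library. comp1259_c0_seq1 was at 116, 105 and 90.8 TPM after bruli knockdown and 128, 122 and 121 TPM in controls, a log2 fold change of -0.26 (adjusted p = 0.0398 in limma). The files do not pair either with a gene name.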
